A study of Mus musculus with 2 samples.

Results

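Atp6ap1l, Rd3, Agr3, Klrb1, Lsm10, Vnn1, Ubash3a, Stfa3, Slc45a2 and Zfp990 are 10 of the 39232 genes listed in single-cell RNA libraries of mouse testis. They were chosen by their measured ratio between the 2 libraries, because an earlier look at these data had found each of them almost wholly in one of them. That ratio is therefore given as a description, with no test. How the counts spread over germ cell stages, and which cells held them, was not used in the choice. Each of the genes is listed under 1 gene identifier, and all are protein coding in the GENCODE M21 annotation.

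The study kept 20 male C57 BL/6 mice, 5 weeks old at the start, for 1 week of adaptation and then for 12 weeks on either a normal diet (10 mice) or a diet with 60% of its energy from fat (10 mice). There was 1 library per group. The label of one names the fatty diet (the high-fat library). For the other, the label states a tissue and no diet, and it is called the unnamed-diet library here. Neither label gives the number of mice behind a library, whether tissue was pooled, or when the library was made, so diet, animal and library cannot be told apart. With 1 library per group no test was possible, and every interval below is a 95% interval for counting error only.

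Sperm form in the seminiferous tubules from spermatogonia, which divide by mitosis, through spermatocytes, which pass through meiosis, to round spermatids, which are haploid and then elongate. Late spermatocytes and round spermatids transcribe a very wide range of genes, including many that are best known from other tissues. The 10 genes are mostly of that kind. Atp6ap1l resembles an accessory subunit of the proton pump of acidic organelles. Rd3 restrains guanylate cyclase in photoreceptors, Agr3 belongs to the protein disulfide isomerases, and Klrb1 is a lectin-like receptor of natural killer cells. Lsm10 is a subunit of the U7 particle that trims histone messenger RNA. Vnn1 is a pantetheinase, Ubash3a damps T cell receptor signals, Stfa3 is a stefin that inhibits cysteine proteases, Slc45a2 is a transporter of pigment organelles, and Zfp990 is a zinc finger gene of a large clustered family.

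The RefSeq promoter table of GRCm38.p6 held 6 of the 10 genes: Rd3, with 2 starts, Lsm10, Klrb1, Agr3, Stfa3 and Ubash3a. The build behind the counts is not given in the sources used here, so these places come from RefSeq and not from the count files. Below are the 250 bases upstream of the annotated start of Lsm10 (chr4:126096403-126096652, plus strand), Klrb1 (chr6:128723098-128723347, minus strand) and Ubash3a (chr17:31207816-31208065, plus strand). They are shown because the counts of these genes lay at different stages. Capitals mark AACNG on either strand, the core of the sites bound by MYB factors, one of which is active in spermatocytes.
Lsm10: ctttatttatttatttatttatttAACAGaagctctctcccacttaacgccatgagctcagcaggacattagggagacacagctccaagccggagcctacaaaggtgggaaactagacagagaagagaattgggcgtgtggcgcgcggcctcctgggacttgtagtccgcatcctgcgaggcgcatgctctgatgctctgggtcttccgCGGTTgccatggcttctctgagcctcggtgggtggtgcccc
Klrb1: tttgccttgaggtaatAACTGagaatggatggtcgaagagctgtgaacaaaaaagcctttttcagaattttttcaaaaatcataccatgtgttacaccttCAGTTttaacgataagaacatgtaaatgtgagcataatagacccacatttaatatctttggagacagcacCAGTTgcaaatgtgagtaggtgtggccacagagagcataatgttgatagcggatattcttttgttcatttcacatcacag
Ubash3a: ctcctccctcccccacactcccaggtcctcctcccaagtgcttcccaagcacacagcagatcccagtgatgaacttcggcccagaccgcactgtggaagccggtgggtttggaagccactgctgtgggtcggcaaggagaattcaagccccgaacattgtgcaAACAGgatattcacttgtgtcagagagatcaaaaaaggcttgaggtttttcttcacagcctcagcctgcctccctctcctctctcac
The Lsm10 window held 2 such cores, the Klrb1 window 3 and the Ubash3a window 1, and a core was present in 74.1% of the first-listed windows of 27025 genes. Neither the cyclic AMP response element TGACGTCA (1.62% of all windows) nor its shorter core TGACG, which lies within it (17.9%), nor TATAAA (13%) was found on either strand in any window of the 6 genes. The Lsm10 window had 12 CpG dinucleotides and 54.4% G or C, against medians of 6 and 52.0% over all windows. The Klrb1 window had 3 and 36.8%, and the Ubash3a window 5 and 55.6%.

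After filters and doublet calls, 13286 cells with 195779981 unique molecular identifiers (UMIs) were kept in the unnamed-diet library and 12196 cells with 191745405 UMIs in the high-fat library. The median barcode as deposited held 13024 and 9772 UMIs. Germ cells are the labelled cell type, yet cells with markers of Sertoli cells, the nurse cells of the tubule, made up 5.80% of the unnamed-diet library and 10.2% of the high-fat library. Cells with markers of lymphocytes made up 0.399% and 1.59%. Class names stand for a likeness in marker genes. In both libraries Late spermatocytes, Round spermatids and the mixed classes around them (spermatocyte to round, and round to elongating) were deep, with median UMIs from 14119 to 20373, and each library filled clusters of its own there: 2, 12, 4, 5, 10 and 3 in the unnamed-diet library and 0, 13, 14, 8, 15 and 11 in the high-fat library. All other named classes were shallow, with medians from 1356 to 4326. Germ cell markers were counted in shallow cells too. In the Sertoli cells, 26 markers of spermatocytes and round spermatids had 69.8% and 64.8% of their whole-library level. RNA free in the suspension can give such counts, but its part was not tested. A level in a shallow class is read against those percentages.

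Levels are given as counts per 1000000 UMIs of the cells in question (CPM). Atp6ap1l had 289.7 CPM in the high-fat library, from 55551 UMIs, and 2.94 CPM in the unnamed-diet library, from 575 UMIs, a ratio of 98.6 (90.9 to 107). Rd3 had 49.1 CPM against 0.286 CPM, from 9417 and 56 UMIs, a ratio of 172 (132 to 227). Klrb1 had 21.5 CPM against 0.0970 CPM, from 4116 and 19 UMIs, a ratio of 221 (141 to 368). All 3 were thus counted at a low level in the unnamed-diet library, and the source of those counts was not tested. Agr3 came closest to absence among the genes of the high-fat library, with 2499 UMIs there and 4 UMIs in the other (13 and 0.0204 CPM, a ratio of 638 with an interval of 249 to 2343).

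The other 6 genes lay in the unnamed-diet library. Lsm10 was the most abundant of all 10, with 912 CPM there, from 178616 UMIs, and 43.4 CPM in the high-fat library, from 8327 UMIs, a ratio of 21.0 (20.6 to 21.5). It was thus far from absent in either library, and its ratio was the smallest among the 10 genes. Vnn1 had 57.6 CPM and 0.0730 CPM, from 11277 and 14 UMIs, a ratio of 789 (470 to 1443). Ubash3a had 76.6 CPM and 2.11 CPM, from 14995 and 404 UMIs, a ratio of 36.4 (32.9 to 40.2). Slc45a2 had 3162 and 7 UMIs, a ratio of 442 (214 to 1101), and Zfp990 had 2780 and 15 UMIs, a ratio of 182 (110 to 325). Stfa3 had 2107 UMIs, or 10.8 CPM, and no count in the high-fat library, where it was not listed among the genes. Set against 3 counts over that library, it was at least 688-fold higher in the unnamed-diet library.

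**Figure D1:**
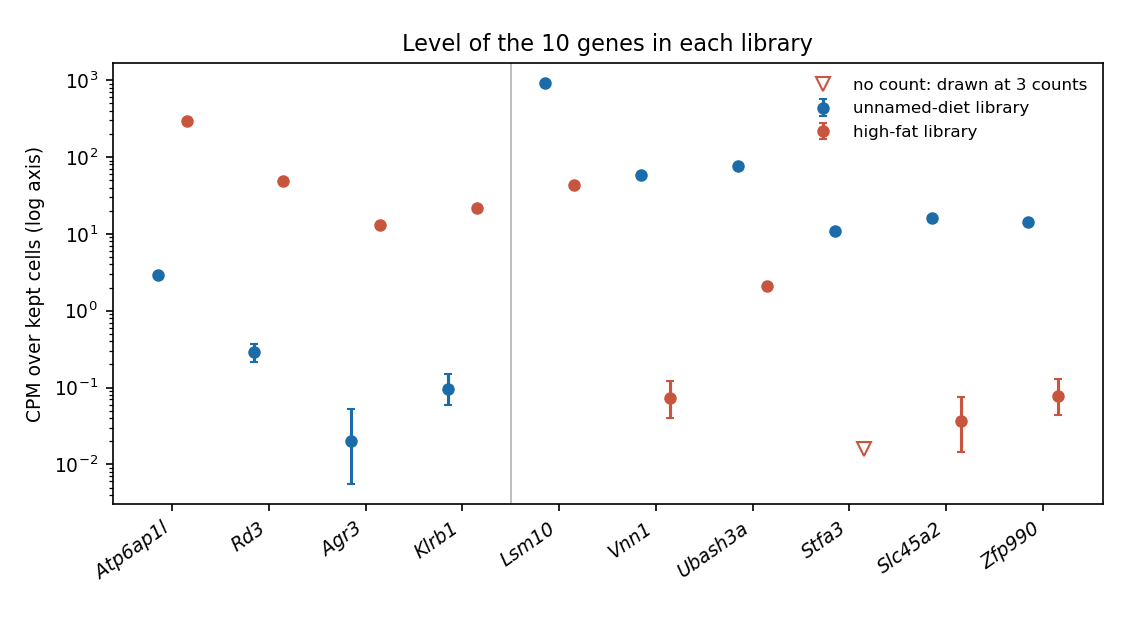
Level of each gene in CPM over the kept cells, on a log axis, in the unnamed-diet library (blue) and the high-fat library (red). Bars are exact Poisson intervals for counting error, and the open triangle marks Stfa3, which has no count in the high-fat library, at 3 counts. The pairs of points lie closest for Lsm10, at 912 and 43.4 CPM.

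Ratios of this size were uncommon but not rare. Of the 23796 genes with at least 50 UMIs over both libraries, 368 (1.55%) were past 10-fold higher in the high-fat library and 371 (1.56%) past 10-fold higher in the unnamed-diet library, and the median log2 ratio (high-fat over unnamed-diet) was 0.11. The 10 genes were 4 and 6 of these, which the choice itself fixes. Among the genes past 10-fold, 37.2% and 37.7% were protein coding, against 69.0% of all genes with that many UMIs. By UMIs, Lsm10 ranked 1 among the 371, and Atp6ap1l ranked 3 among the 368. By ratio Lsm10 ranked 235 and Ubash3a 143 among the genes higher in the unnamed-diet library, whereas Vnn1 ranked 5 and Stfa3 ranked 7. The other genes with most UMIs past 10-fold were, in the high-fat library, Rpl26 (6687 against 141699 UMIs), 4933432K03Rik, Dynlt1f, 1700095B10Rik and Dynlt1a. In the unnamed-diet library they were Gm15772 (84120 against 569 UMIs), Rps13-ps1, Gm6218, Gm15920 and Rps24-ps3. All of the latter 5 are annotated as processed pseudogenes, copies whose reads can be shared with their source genes, so their levels are uncertain, and Dynlt1f and Dynlt1a are copies of one gene family.

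**Figure D2:**
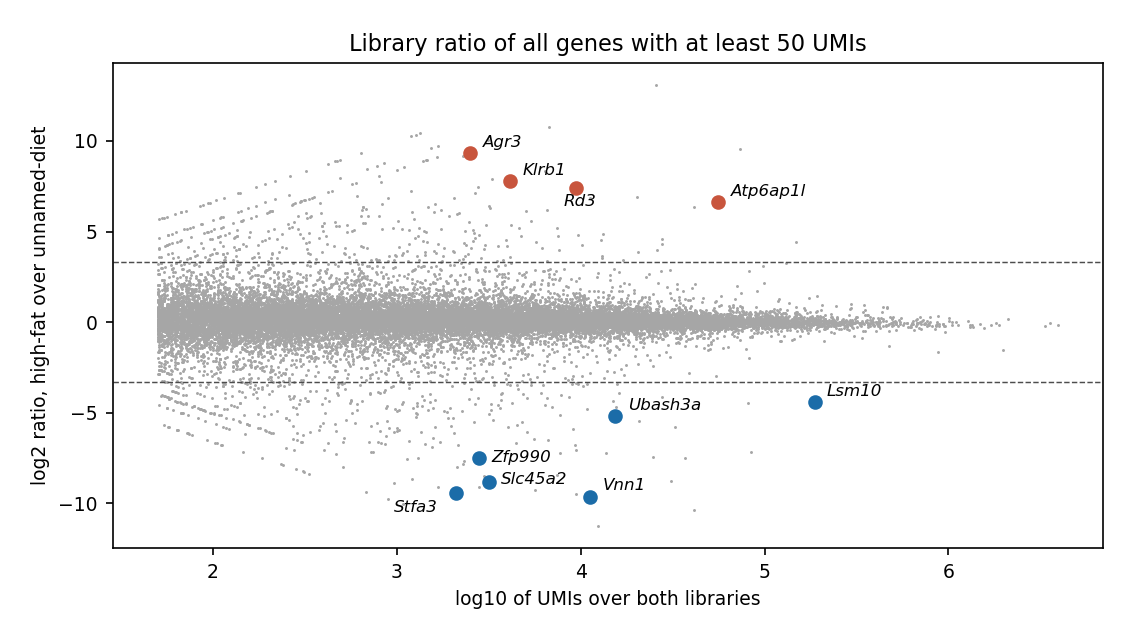
Log2 ratio between the libraries (high-fat over unnamed-diet) against the log10 of the UMIs over both, for the 23796 genes with at least 50 UMIs (grey points). Large points mark the 10 genes, and dashed lines mark 10-fold, beyond which 1.55% and 1.56% of genes lie. Lsm10 stands at the abundant end of the genes past that line.

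Across stages, Atp6ap1l followed opposite courses in the 2 libraries. Within the high-fat library it was highest in late spermatocytes, with 329 CPM (326 to 333), and the mixed spermatocyte to round class, with 327 CPM, did not differ from them beyond counting error. It was lower in round spermatids, with 274 CPM, and in the round to elongating class, with 223 CPM (218 to 229), which was 0.678 (0.659 to 0.698) of the level in late spermatocytes. The few counts of the unnamed-diet library ran the other way. Late spermatocytes had 37 UMIs, or 0.591 CPM (0.416 to 0.815), round spermatids 162 UMIs, or 3.27 CPM, and the round to elongating class 324 UMIs, or 9.93 CPM (8.88 to 11.1). That last level was 16.8 times (11.9 to 24.3) the level in late spermatocytes, and the class held 56.3% of all counts of the gene in that library.

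The ratio of Atp6ap1l between the libraries therefore fell along the course of development. It was 557 (404 to 792) in late spermatocytes, 440 (298 to 681) in the spermatocyte to round class, 83.8 (71.8 to 98.5) in round spermatids and 22.5 (20.1 to 25.3) in the round to elongating class. The intervals of the first pair overlap, and the later ones are apart from them and from each other. On the log2 scale the last ratio was 4.49, and it was 3.90 with each library clustered on its own and 5.02 at a finer clustering. No single cell carried it: the cell with most counts in the unnamed-diet library had 7 UMIs, 1.22% of the total, and 429 of the 491 cells with a count had 1. In the Sertoli cells of the high-fat library Atp6ap1l stood at 63.8% of its whole-library level, beside 64.8% for the germ cell markers.

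Rd3 peaked later than Atp6ap1l. Its level in the high-fat library was 34.5 CPM in late spermatocytes, 62.0 CPM in the spermatocyte to round class, 70.0 CPM (67.7 to 72.5) in round spermatids and 61.0 CPM in the round to elongating class. Round spermatids had 2.03 times (1.93 to 2.13) the level of late spermatocytes. The 56 UMIs of the unnamed-diet library lay in the same 4 classes, with 20, 7, 19 and 5 UMIs, apart from 5 in other cells. They were too few to show a course: round spermatids had 1.20 times (0.607 to 2.37) the level of late spermatocytes. Rd3 overlaps the antisense gene Gm26670, which had 3689 and 5620 UMIs, a log2 ratio of 0.64. Whether the counting used strand is not given in the sources used here, so the counts of Rd3 and Gm26670 may not be fully apart.

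Agr3 was flat up to round spermatids in the high-fat library and then lower. It had 13.9 CPM in late spermatocytes, 15.5 CPM in the spermatocyte to round class, 13.5 CPM in round spermatids and 11.0 CPM in the round to elongating class. The first 3 of these did not differ beyond counting error, and the last was 0.791 (0.691 to 0.903) of the first. Of its 4 counts in the unnamed-diet library 1 lay in round spermatids and 3 in the round to elongating class, each in a cell of its own.

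Klrb1, a receptor of killer lymphocytes, had most of its counts in the round to elongating class. Its level in the high-fat library was 2.74 CPM in late spermatocytes and 2.90 CPM in the spermatocyte to round class, then 19.4 CPM in round spermatids and 103 CPM (98.8 to 107) in the round to elongating class, 37.5 times (32.8 to 43.1) the level in late spermatocytes. That class held 2538 of its 4116 UMIs, or 61.7%. Within round spermatids it rose from 4.97 CPM in cluster 15 to 31.7 CPM in cluster 8. The elongating spermatids still had 82.0 CPM.

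The lymphocytes held 10 UMIs of Klrb1, or 20.3 CPM (9.71 to 37.3), an interval that overlaps the level in round spermatids and in the Sertoli cells (18.4 CPM). A UMI of the gene was seen in 75.5% of the round to elongating cells and in 6.59% of late spermatocytes, at medians of 20373 and 20032 UMIs per cell. With each cell thinned to 1000 UMIs, which every kept cell had, these shares were 10.4% and 0.479%. The 19 UMIs of the unnamed-diet library were placed otherwise: 9 lay in spermatogonia and 1 in the round to elongating class, and none in the lymphocytes. In spermatogonia the ratio of high-fat to unnamed-diet was 2.30 (1.04 to 5.58). The 26 UMIs on the high-fat side stood at 37.5% of the whole-library level, beside 43.7% for the germ cell markers. The part of free RNA in them was not tested.

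**Figure D3:**
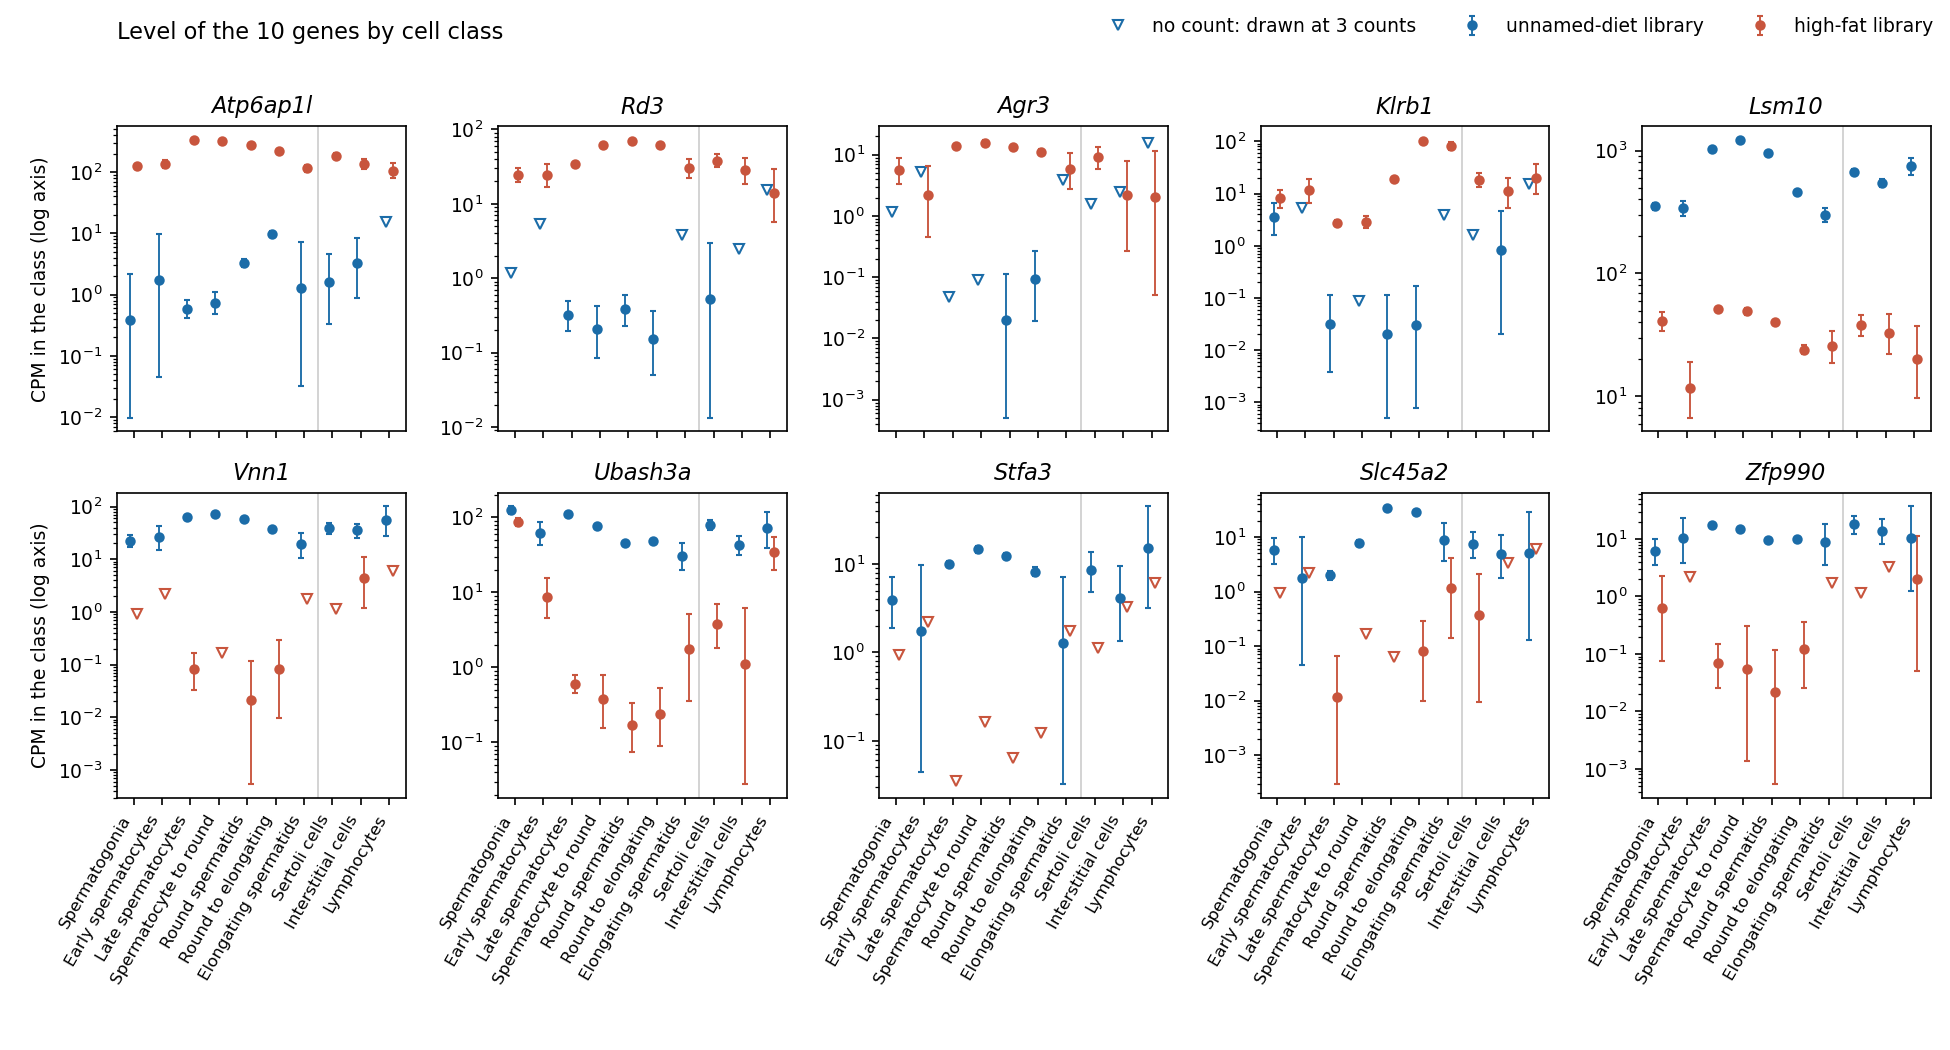
Level of each gene in CPM, on log axes that differ between panels, in 7 germ cell classes (left of the grey line) and 3 other classes, for the unnamed-diet library (blue) and the high-fat library (red). Bars are exact Poisson intervals, and open triangles mark classes without a count at 3 counts. Atp6ap1l in the unnamed-diet library climbs from 0.591 CPM in late spermatocytes to 9.93 CPM in the round to elongating class, while in the high-fat library it falls from 329 to 223 CPM.

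Lsm10 declined from the spermatocyte classes to the round to elongating class in both libraries, at different heights. Its level in the unnamed-diet library was 1032 CPM in late spermatocytes, 1210 CPM (1198 to 1222) in the spermatocyte to round class, 959 CPM in round spermatids and 456 CPM in the round to elongating class. The same classes of the high-fat library had 51.2, 49.4, 40.4 and 24 CPM. The round to elongating class stood at 0.442 (0.434 to 0.450) of late spermatocytes in the first library and at 0.468 (0.428 to 0.510) in the second, and these intervals overlap. Round spermatids stood at 0.928 (0.917 to 0.939) and 0.788 (0.746 to 0.832), which do not. The ratio between the libraries stayed between 19.1 and 24.5 in the 4 deep classes. It was 8.62 (7.17 to 10.4) in spermatogonia, where the level in the unnamed-diet library was 352 CPM, or 38.6% of its whole-library level, beside 36.2% for the germ cell markers there. In the high-fat library the spermatogonia had 40.9 CPM, or 94.1% of the whole-library level, beside 43.7% for the markers. Late spermatocytes had 2.93 times (2.75 to 3.14) the level of spermatogonia in the unnamed-diet library and 1.25 times (1.05 to 1.5) in the high-fat library. Spermatogonia are a shallow class, and the part of free RNA in these ratios was not tested.

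Vnn1 resembled Lsm10 in the unnamed-diet library, and Stfa3 did so in part. Vnn1 had 64.5 CPM in late spermatocytes, 70.8 CPM in the spermatocyte to round class, 57.6 CPM in round spermatids and 37.3 CPM in the round to elongating class. Stfa3 had 9.90, 14.6, 12.4 and 8.21 CPM in the same order. Round spermatids stood at 0.893 (0.851 to 0.937) of late spermatocytes for Vnn1 and at 0.928 for Lsm10. For Stfa3 they stood at 1.25 (1.12 to 1.41), the opposite direction. Vnn1 and Stfa3 both had their highest value among the deep classes in the spermatocyte to round class. For Stfa3 the interval of that class overlapped that of round spermatids. Over the 10 named classes the Pearson correlation of log2(CPM + 1) with Lsm10 was 0.97 for Vnn1 and 0.88 for Stfa3. It is a description, since the classes share a library and any free RNA in it. The 14 UMIs of Vnn1 in the high-fat library included 7 in late spermatocytes and 4 in the interstitial cells, the mixed cells between the tubules.

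Slc45a2 was highest in spermatids. Its level in the unnamed-diet library was 1.98 CPM in late spermatocytes, 7.85 CPM in the spermatocyte to round class, 34.7 CPM (33.1 to 36.4) in round spermatids and 29.0 CPM in the round to elongating class. Round spermatids had 17.5 times (14.6 to 21.2) the level of late spermatocytes, and together with the round to elongating class they held 54.3% and 29.9% of its counts. Its 7 UMIs in the high-fat library lay in 7 cells, with none in the 2004 round spermatids, where 3 counts would be 0.0640 CPM.

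Zfp990 was highest among the deep classes in late spermatocytes, with 17.6 CPM in the unnamed-diet library, and round spermatids had 9.56 CPM, 0.542 (0.486 to 0.604) of that. The Sertoli cells had as much, 18.0 CPM (12.4 to 25.1), which was 127% of its whole-library level beside 69.8% for the germ cell markers, and the interstitial cells had 13.9 CPM, 98.1% beside 50.6%. Cluster 16, which got no class name and had a low depth, had the highest level, with 32.7 CPM (28.9 to 37.0), which overlapped another unnamed cluster with 23.1 CPM (12.3 to 39.6). Its 15 UMIs in the high-fat library lay in 15 cells, of which 6 were late spermatocytes.

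Ubash3a differed far less between the libraries in spermatogonia than in the deep classes. The unnamed-diet library had 126 CPM (113 to 140) in spermatogonia and 113 CPM in late spermatocytes, then 45.2 CPM in round spermatids. Late spermatocytes of the high-fat library had 0.603 CPM, 187-fold (143 to 251) lower than in the unnamed-diet library, whereas spermatogonia had 87.0 CPM (77.1 to 97.8), a ratio of 1.45 (1.23 to 1.70). Spermatogonia held 281 of the 404 UMIs of the gene in the high-fat library, or 69.6%.

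A few cells made up much of that count. A single spermatogonium of the high-fat library held 137 UMIs of Ubash3a, 33.9% of the total, and 3 others held 41, 13 and 11. In the unnamed-diet library the cell with most counts, 148 UMIs, was a spermatogonium too. These 5 cells had at most 1 UMI of the lymphocyte markers, and at least 4 UMIs of the spermatogonial markers. Without them the spermatogonia had 68.7 CPM (58.9 to 79.6) in the unnamed-diet library and 24.8 CPM (19.6 to 30.9) in the high-fat library. The lymphocytes, in which the gene is best known, had 14 and 17 UMIs, or 71.5 CPM (39.1 to 120) and 34.4 CPM (20.1 to 55.1). In the unnamed-diet library that level overlapped the Sertoli cells, with 79.8 CPM. In the high-fat library the Sertoli cells had 3.76 CPM, so the lymphocytes stood above them there.

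In single cells, Lsm10 and Atp6ap1l were spread widely in the library that held them, and the other genes less so. In their own library Ubash3a was counted in 47.8% of cells, Vnn1 in 44.0% and Rd3 in 37.5%. Slc45a2 was counted in 16.7%, Zfp990 in 16.6%, Agr3 in 15.8%, Klrb1 in 15.6% and Stfa3 in 13.4%. Lsm10 was counted in 85.6% (85.0 to 86.2) of the cells of the unnamed-diet library and in 34.8% of those of the high-fat library, and in 50.4% and 3.54% with each cell thinned to 1000 UMIs. Atp6ap1l was counted in 67.7% of the cells of the high-fat library and in 3.70% of those of the unnamed-diet library, and in 21.8% and 0.339% after thinning. Sertoli cells had medians of 1356 and 1544 UMIs. They showed Lsm10 in 50.3% of cells in the unnamed-diet library and Atp6ap1l in 28.1% in the high-fat library. Such shares in shallow cells may include free RNA, whose part was not tested.

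Among the cells of the 4 deep germ cell classes with at least 10000 UMIs, 7703 came from the unnamed-diet library and 5778 from the high-fat library. In the former, Lsm10 had a median of 17 UMIs per cell, with 5 to 49 between the 5th and 95th percentiles, and only 9 cells, or 0.117% (0.0534 to 0.222), had none. In the latter its median was 1 and its highest count 22, and 38.7% of cells had none. Atp6ap1l was at 0 in 94.4% of the former cells, with a highest count of 7, and in 1.16% (0.900 to 1.47) of the latter, where its median was 7 and its highest count 91. In the library that had little of it, Atp6ap1l was thus not counted in most deep cells, whereas Lsm10 had a low count in most. Klrb1, by contrast, was at 0 in 92.7% of the deep late spermatocytes of the high-fat library and in 12.5% of its deep round to elongating cells.

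**Figure D4:**
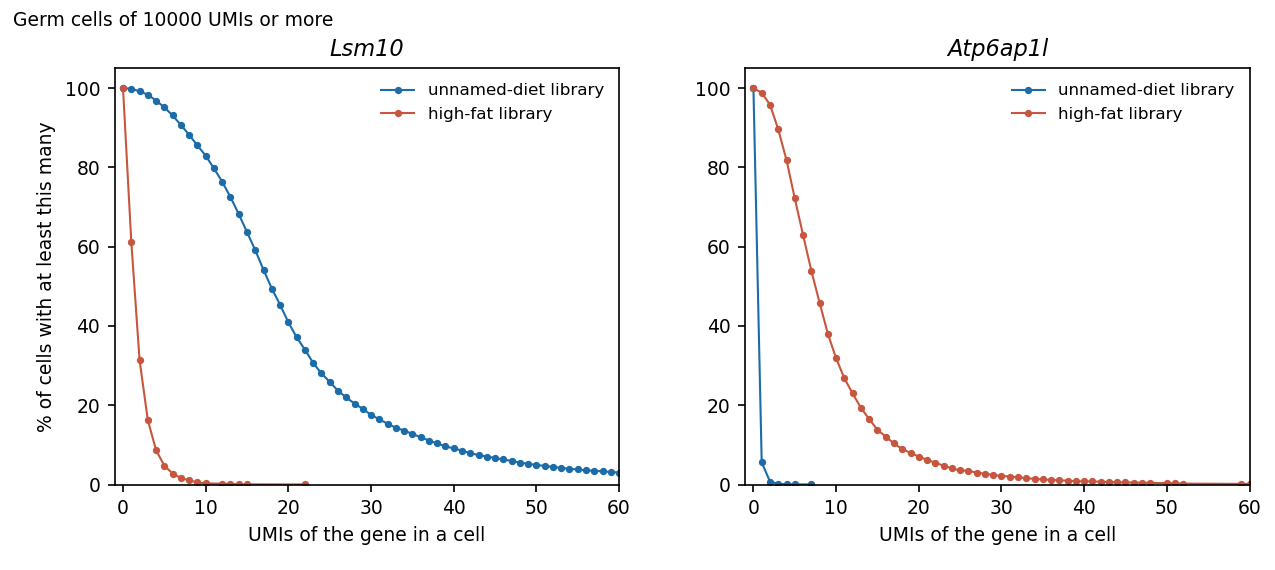
Share of germ cells, in percent, that hold at least the number of UMIs on the horizontal axis, for Lsm10 and Atp6ap1l, among cells of the 4 deep classes with at least 10000 UMIs in the unnamed-diet library (blue, 7703 cells) and the high-fat library (red, 5778 cells). The axis ends at 60 UMIs. In the unnamed-diet library the Lsm10 curve passes its median at 17 UMIs, and in the high-fat library the Atp6ap1l curve passes it at 7.

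The choice of the genes by this ratio sets which set leads in most cells, so the following counts are a description. Counted together, the 6 genes of the unnamed-diet library exceeded the 4 of the high-fat library in 7698 of the 7703 deep cells of the former, 99.9%, with 4 ties and 1 cell the other way. Lsm10 and Atp6ap1l, the most abundant members, carry most of these sums. In the high-fat library the 4 genes exceeded the 6 in 5621 of 5778 deep cells, 97.3%, with 81 ties and 76 cells the other way. With Lsm10 set aside, since both libraries held it, counts of the other library's genes were found in 565 cells (4.25%) of the unnamed-diet library and 220 cells (1.80%) of the high-fat library. Only 1 and 2 of these cells held more than one such gene. Of the 654 UMIs in the unnamed-diet library 324 were Atp6ap1l in the round to elongating class, and of the 440 UMIs in the high-fat library 281 were Ubash3a in spermatogonia, 137 of them in 1 cell.

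The cells were also sorted by genes outside the 10, namely the 365 and 364 other genes past 10-fold between the same libraries, a choice that itself makes the other library's share low in most cells. Among the cells with at least 20 UMIs of those genes, 9702 in the unnamed-diet library and 7565 in the high-fat library, the other library's set made up a median of 2.94% and 3.03%. It exceeded 50% in 2 cells of the unnamed-diet library, both shallow Sertoli cells, and in 3 cells of the high-fat library. One of the latter was a deep round to elongating cell with 31384 UMIs, placed in cluster 3, most of whose cells came from the unnamed-diet library. It held 126 UMIs of the unnamed-diet set and 26 of the high-fat set, and also 22 UMIs of Lsm10, 2 of Vnn1, 1 each of Slc45a2 and Zfp990, and none of Atp6ap1l. It was the cell with the highest Lsm10 count of the high-fat library. Without these 5 cells the log2 ratios of the 10 genes moved by 0.22 or less in size.

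Few relatives and partners of the 10 genes had ratios of that size, as is so of genes in general. Of 96 listed genes 79 had at least 20 UMIs. Of these, 2 were past 10-fold higher in the high-fat library and none in the unnamed-diet library, beside 3.38% of all 27007 genes with that many UMIs in either direction. Past 2-fold were 12 higher in the high-fat library and 7 in the unnamed-diet library, beside 11.4% and 8.01% of all genes. The listed genes had a median log2 ratio of 0.01, beside 0.11 over the genes with at least 50 UMIs. The 2 were Tyr, the pigment enzyme listed with Slc45a2 (2 and 23 UMIs, a ratio of 11.7 with an interval of 2.90 to 103), and Zfp980, listed with Zfp990 (8 and 125 UMIs, a ratio of 16.0 with an interval of 7.85 to 37.8). The lists were drawn up with earlier results of these data known.

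For Lsm10, all 12 partners in histone RNA processing stayed within 2-fold, from Cpsf3, a cleavage factor, at a log2 ratio of -0.60 to Snrpb, an Sm protein, at 0.39. Lsm11, the other particular subunit of the U7 particle, had 690 and 655 UMIs. The 10 proton pump genes listed with Atp6ap1l ran from -0.52 for Atp6v0d1 to 0.63 for Atp6ap1, and the 5 isomerases measured with Agr3 from -0.25 for Txndc12 to 0.30 for P4hb. With Rd3, the 5 genes measured ran from -0.49 for Gucy2e to 0.72 for Gucy2f. In these lists no gene was past 2-fold.

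In the other lists some genes were past 2-fold. Of the 9 coenzyme A genes listed with Vnn1, 1 was past 2-fold: Vnn3, its nearest relative, with 218 and 50 UMIs, a log2 ratio of -2.09, in the direction of Vnn1. The highest in that list was Ppcs at 0.56. Of the 12 zinc finger genes and partners measured with Zfp990, 4 were past 2-fold higher in the high-fat library and 2 in the unnamed-diet library, from Zfp985 (283 and 37 UMIs, -2.91) to Zfp980 (above), while Trim28, the common partner of such zinc fingers, had 0.01. Of the 6 receptor and ligand genes measured with Klrb1, 3 were past 2-fold in each direction, from Klrb1a at -1.51 to Klrb1c at 3.32, all from fewer than 250 UMIs. Of the 8 genes of T cell receptor signalling listed with Ubash3a, 4 were past 2-fold higher in the high-fat library, with Lat highest at 1.82, the opposite direction to Ubash3a, and Ubash3b lowest at -0.98. Lymphocytes made up 0.399% and 1.59% of the cells, and their part in those 4 ratios was not tested. Of the 4 stefin genes measured with Stfa3, Stfa2 had 24 UMIs in the unnamed-diet library and none in the high-fat library, and Cst3 was highest at 0.79. Of the 8 genes measured with Slc45a2, Slc45a3 was lowest at -0.76.

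The 10 genes lie on 9 chromosomes in the GENCODE M21 annotation. Of their 40 nearest neighbours with at least 20 UMIs, 2 on each side of each gene, 3 were past 10-fold and 16 past 2-fold in either direction, beside 3.38% and 19.4% of all genes with that many UMIs. No test was made of these counts, and neighbours of 1 gene share a region. Gm47520, next to Atp6ap1l, had 141 and 8 UMIs, a log2 ratio of -4.11, the opposite direction to Atp6ap1l. Tmprss3, a membrane protease gene next to Ubash3a, had 56 UMIs in the unnamed-diet library and 1 in the high-fat library, a log2 ratio of -5.78, in the same direction as Ubash3a. Platr16, near Zfp990, had 551 and 17 UMIs, a log2 ratio of -4.99, again in the same direction. All 4 neighbours of Ubash3a were lower in the high-fat library, among them Rsph1, a gene of the sperm tail, with 1484010 and 508063 UMIs, a log2 ratio of -1.52. All 4 neighbours of Stfa3 were lower there too, from -2.97 for Stfa2 (a bound) to -0.10 for Cd86. Those of Agr3 leaned the way of Agr3, from 0.03 for Gm48236 to 0.71 for Gm34047. Around Lsm10, Oscp1, Stk40 and Eva1b had log2 ratios of 0.11, 0.13 and 0.20, close to the median of all genes, and Rpl28-ps3 had 1.81 from 27 and 93 UMIs.

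**Figure D5:**
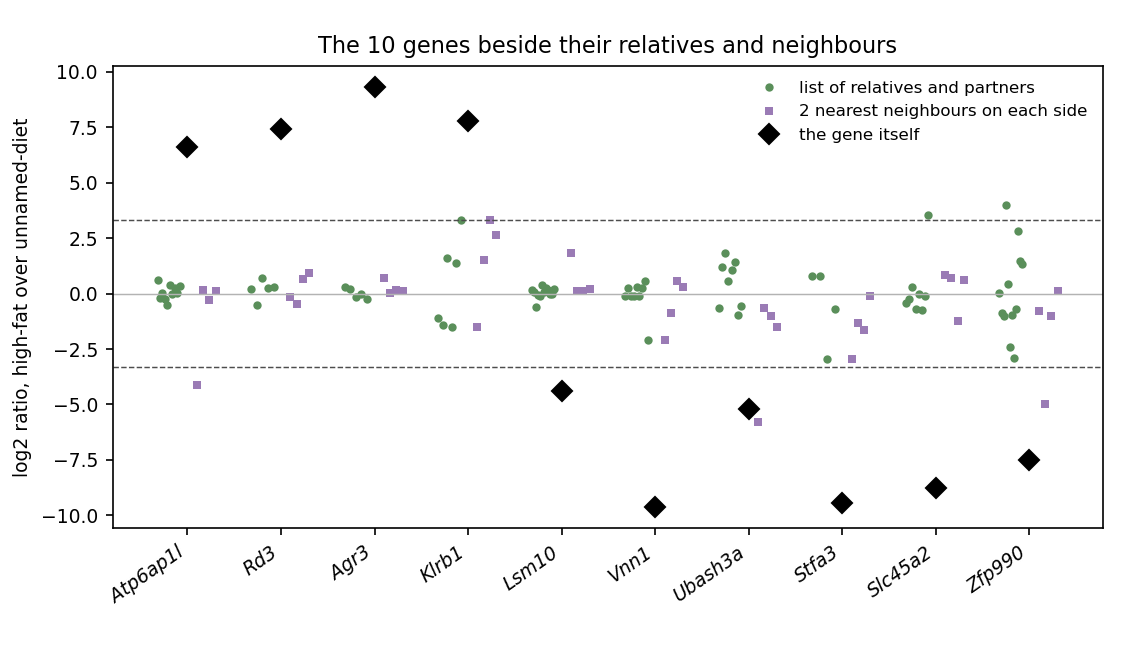
Log2 ratio (high-fat over unnamed-diet) of each of the 10 genes (black diamonds), of the measured genes in its list of relatives and partners (green circles) and of its 2 nearest measured neighbours on each side (purple squares). Dashed lines mark 10-fold. Of 79 relatives 2 lie beyond them, and of 40 neighbours 3.

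Reads of a gene with a near copy can be split by the counting, so the transcripts were compared. The longest transcript of Stfa3 was 81.4% identical to one of Stfa2l1 over 99.3% of its length, that of Zfp990 88.5% identical to Zfp989 over 74.7%, and that of Klrb1 78.5% identical to Klrb1f over 76.0%. Counts of these 3 genes are therefore less certain in this respect, though whether reads were split was not tested. Stfa2l1 had 48 and 29 UMIs in the unnamed-diet and high-fat libraries, and Zfp989 had 10 and 4. For Vnn1 the closest was Vnn3, 67.4% identical over 54.6%, and for Agr3 it was Agr2, 70.9% over 49.6%. For Rd3 and Ubash3a the best match covered 3.65% and 3.60% of the transcript, but matches were found in 1596 and 1603 other genes. Only the best match was measured, and whether reads were shared over the others was not tested. No other transcript matched Atp6ap1l, Lsm10 or Slc45a2.

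Most genes with the same stage profile had no ratio past 10-fold, as is so of genes in general. Of all genes with at least 200 UMIs over both libraries, 1.26% were past 10-fold higher in the high-fat library and 1.23% in the unnamed-diet library. For each gene the 3 genes with the highest Pearson correlation of log2(CPM + 1) over the 10 named classes were taken in the library that held it, among genes with at least 200 UMIs there. For Lsm10 these were Gm50253, 1700010I14Rik and Ccdc96 (correlations 0.99), with log2 ratios of -0.37, -0.04 and -0.20. For Vnn1 they were Pax9, Cops5 and Peli2 (0.98), with 0.17, 0.01 and -0.42. For Slc45a2 they were Npb, Grik1 and Lyzl4 (0.97 to 0.96), with 0.03, -0.02 and -0.18. Among the 3 of Atp6ap1l, 1700023F02Rik had 172 and 20142 UMIs, a log2 ratio of 6.90, while 1700020D05Rik and Mtch2 had -0.06 and 0.01. Among the 3 of Klrb1, Gm49796 had 14 and 3296 UMIs, a log2 ratio of 7.91, beside Slfnl1 (0.34) and Gm12665 (1.80). For Rd3 the genes were Gm35060, 1700110I07Rik and 1700018B08Rik, with 0.72, 0.79 and 0.02, and for Agr3 Defb41, 1700039M15Rik and 1810012K16Rik, with -0.41, -1.03 and -0.24. For Stfa3 they were Utf1 (-1.92), 1700010K23Rik (-0.28) and 1700125G22Rik (0.69). For Ubash3a they were Gm21917, Psmd2 and Gm16158, with -0.05, 0.14 and -0.34, and for Zfp990 4930500F10Rik, Me1 and Rcor3, with 0.36, 0.22 and -0.11. The correlations were lowest for Zfp990 (0.88 to 0.89) and Ubash3a (0.90 to 0.91). The classes share a library and any free RNA in it, so these correlations are a description.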

How the data were processed

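Testis tissue was profiled in 2 droplet libraries. The authors deposited whole-number counts of UMIs per gene and cell, without normalization. The matrices were written by PISA 1.0, per the file headers, and Cell Ranger 2.1.1 is named in the submitters' processing notes. The aligner and build were not given in the sources used here. Deposited barcodes had at least 1000 and 1025 UMIs.

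Cells needed 500 UMIs, 250 genes and at most 20% mitochondrial UMIs, which removed 2 and 3 barcodes. Scrublet in scanpy 1.11.5 marked 517 (3.75%) and 462 (3.65%) doublets, which were left out. Cells of both libraries were clustered together without the 10 genes (2000 variable genes, 50 components, 20 neighbours, Leiden resolution 1). Clusters were named by markers. Counts were summed per library and class. Intervals are exact Poisson for levels, conditional binomial for ratios and Clopper-Pearson for shares. A ratio against 0 uses 3 counts. Of 39232 gene IDs, 39109 matched GENCODE M21, used for gene kind, neighbours and transcripts (blastn 2.17.0). The ratio calculation was run on simulated Poisson counts with set folds. These had no spread between cells or animals, so they check the calculation only. Other cell filters, scalings, clusterings and thresholds were tried as alternatives. The 10 genes and all gene lists were chosen with earlier results of these data known. Genes named beside them are the listed relatives with the highest and lowest ratio, 2 measured neighbours on each side, the 5 most abundant genes past 10-fold in each direction and the 3 most alike in stage profile, with a few others named after their values were seen.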

Additional observations from a re-analysis of the deposited data

How the results depend on the processing

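All 10 genes kept their direction and stayed past 10-fold under each alternative run: cells of at least 2000 UMIs, no cell filter, thinning to 1000 UMIs, leaving out the barcode with most counts of the gene in each library, matching by gene ID, median of ratios, and, chosen after seeing the data, leaving out the 5 cells that resembled the other library. Thinning moved 7 of the 10 log2 ratios by more than 1.5-fold. Those above 0 went to 6.40 for Rd3, 5.53 for Agr3 (a bound) and 5.61 for Klrb1. Those below 0 went to -7.54 for Vnn1 (a bound), -3.57 for Ubash3a, -5.41 for Stfa3 (a bound) and -7.63 for Slc45a2. Thinning leaves very few or no counts in the lower library and weights shallow cells as much as deep ones. Without its top barcode in each library Ubash3a had -5.77 in place of -5.18. Of 50 class ratios each, 14 moved by more than 1.5-fold with the libraries clustered apart and 10 at resolution 2, and none reversed. Ubash3a in spermatogonia moved from -0.53 to -1.47 without the cells holding at least 10 of its counts, chosen after seeing the data. Of all genes, those past 10-fold numbered 239 and 232 with a minimum of 200 UMIs, and 240 and 244 were past 20-fold, higher in the high-fat and the unnamed-diet library. With a minimum of 10 UMIs there were 495 and 511. Leaving out barcodes common to both libraries was not run, because cells carry numbers and not base sequences (1507 names occur in both). No paired analysis was possible because each group has 1 library. Counts below 3 limit ratios in shallow classes.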
